A study of Homo sapiens with 6 samples.

Results

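The SERINC family was examined in HCT116 cells made to overexpress the small nucleolar RNA SNORA28. Its 4 members here are SERINC1, SERINC2, SERINC3 and SERINC5, out of 60612 genes in the deposited tables, and all 4 of them passed the filter for testing (an average of 1 FPKM or more over the 6 libraries, where FPKM is the fragment count scaled for transcript length and library size). They were chosen because SERINC1 was strongly and evenly higher with SNORA28 in these same libraries, so their differences between the groups are given as a description and carry no test. SERINC4 is a further family gene, outside the chosen set.

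SERINC proteins cross the membrane many times and are named serine incorporators, after a proposed role in bringing serine into phosphatidylserine and sphingolipids. Members of the family have been shown to act as lipid scramblases, which move phospholipids between the leaflets of a membrane. SERINC3 and SERINC5 are best known as restriction factors: taken into budding retrovirus particles they lower infectivity, and the HIV accessory protein Nef removes them from the cell surface.

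HCT116 is a human colorectal carcinoma line. One group, LV-NC (3 libraries), was infected with a negative control lentivirus, and the other, LV-SNORA28 (3 libraries), with a lentivirus that overexpresses SNORA28, an H/ACA box small nucleolar RNA whose gene lies within EIF5. Both groups share the parental line and lentiviral infection. The methods say that samples were collected after infection and describe puromycin selection for stably overexpressing cells in general, not for the sequenced samples, and a single line limits how far values extend to other cells. Polyadenylated RNA was sequenced from libraries built to keep strand, and no source used here says whether the replicates were separate cultures, so p-values measure the spread between these samples only.

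The 3 control libraries listed SNORA28 at 0.92, 0 and 0.64 FPKM, while the LV-SNORA28 libraries listed 15.01, 13.66 and 15.2 FPKM, which matches the labels (difference 3.41, SE 0.23 on the log2(FPKM + 1) scale, adjusted p = 0.00228, limma with Benjamini-Hochberg adjustment). FPKM summed to between 306048.4 and 374676.0 per library and between 11664 and 12259 genes reached 1 FPKM. Read depth is unknown. Genes of the mitochondrial genome took 44.4% ± 2.84 of all FPKM in LV-NC and 37.3% ± 1.26 in LV-SNORA28 (SD, n = 3 each). Of 12076 genes tested, 822 were called higher (6.81%) and 254 lower (2.1%) at an adjusted p below 0.05, or 8.91% in either direction, and the groups did not overlap in 35.1% of genes tested. The higher calls outnumbered the lower far less after quantile normalization (451 against 375) or with the GC trend (382 against 328) or the length trend (519 against 474) removed, and far more after rescaling to TPM, a unit that gives every library one total (1895 against 135). The median log2 difference over all genes tested was 0.09, and 0.24 after the TPM rescaling. The 5 epithelial markers EPCAM, CDH1, KRT8, KRT18 and KRT19 stood at 9.65 to 411.55 FPKM (summed 758 to 846 in LV-NC and 780 to 827 in LV-SNORA28). Leukocyte markers reached at most 0.19 FPKM, endothelial markers 0.09, and fibroblast markers 4.46 (COL1A1), with COL1A2 and DCN at 0.

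Sequence is shown first for the RNA that was added and for the start regions of the 2 SERINC genes with the higher levels in LV-SNORA28. The SNORA28 gene occupies chr14:103337849-103337974 on the plus strand of GRCh38 (GENCODE release 44), and the capitals mark its ACA box.
SNORA28: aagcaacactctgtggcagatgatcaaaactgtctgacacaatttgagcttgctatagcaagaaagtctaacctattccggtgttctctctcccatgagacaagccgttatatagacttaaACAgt
The promoter windows below are from RefSeq on GRCh38.p14, each 300 bases long and reaching from upstream to just past a gene's start. The SERINC1 window is chr6:122471758-122472057 and the SERINC3 window chr20:44522021-44522320, both read on the minus strand. Capitals mark matches on either strand to the motif CGCATGCG (the NRF1 core), CCGGAAGT (ETS factors), TGACG (a cyclic AMP response element core), GGGCGG (the GC box) or CCAAT.
SERINC1 promoter: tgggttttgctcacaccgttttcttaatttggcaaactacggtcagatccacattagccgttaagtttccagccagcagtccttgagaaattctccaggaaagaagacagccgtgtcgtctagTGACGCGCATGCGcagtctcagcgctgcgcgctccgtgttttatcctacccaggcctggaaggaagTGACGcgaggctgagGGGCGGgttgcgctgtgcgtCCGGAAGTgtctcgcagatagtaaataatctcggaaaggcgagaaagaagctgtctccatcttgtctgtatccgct
SERINC3 promoter: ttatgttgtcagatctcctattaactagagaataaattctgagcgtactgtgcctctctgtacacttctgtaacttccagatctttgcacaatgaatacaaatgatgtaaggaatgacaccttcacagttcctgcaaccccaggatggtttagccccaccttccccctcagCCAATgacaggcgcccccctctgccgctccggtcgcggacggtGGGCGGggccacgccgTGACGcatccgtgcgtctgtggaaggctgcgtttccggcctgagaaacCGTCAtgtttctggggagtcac

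The SERINC1 window held 1 match to CGCATGCG, 1 to CCGGAAGT, 2 to TGACG, 1 to GGGCGG and none to CCAAT. Its first TGACG and the CGCATGCG stand next to each other without overlap. The SERINC3 window held 2 matches to TGACG, 1 to GGGCGG and 1 to CCAAT. Over 35116 promoter windows of the same length, CGCATGCG was present in 2.02%, CCGGAAGT in 4.14%, TGACG in 24.6%, GGGCGG in 45.0% and CCAAT in 34.6%. GC content was 53.0% for the SERINC1 window (22 CpG), 54.0% for SERINC3 (16 CpG) and 76.0% for SERINC5 (39 CpG), where 4 GC boxes and 1 TGACG matched. SERINC2 has more than 1 window, with GC content of 48.0% (4 CpG), 49.7% (1 CpG), 77.7% (42 CpG) and 69.7% (27 CpG). Of the motifs, only GGGCGG and CCAAT matched in the SERINC2 windows. These are matches of letters, and binding was not measured.

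SERINC1 (ENSG00000111897, chr6:122443351-122471807, minus strand), a broadly expressed family member, was the gene that set the choice. Its level was 10.98, 10.29 and 10.69 FPKM in LV-NC against 23.52, 24.4 and 25.52 FPKM with SNORA28. All LV-SNORA28 libraries lay far above all LV-NC libraries, and every pairing of one library from each group gave a ratio between 2.14 and 2.48. The means were 10.7 ± 0.346 and 24.5 ± 1.0 FPKM (SD, n = 3), a ratio of 2.3 and a difference of 1.13 (SE 0.06) on the log2(FPKM + 1) scale. By that difference, 43 of the genes tested lay above SERINC1 and 99.6% below it. The replicates were close together, with a coefficient of variation of 3.25% in LV-NC and 4.09% in LV-SNORA28. A smaller within-group SD was found in 6.57% of genes tested. SERINC1 was picked for a strong and even difference, so both ranks follow from the choice and nothing is read from them. In bulk RNA, a higher level in each cell and a larger share of cells with a high level cannot be told apart.

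SERINC3 (ENSG00000132824, chr20:44496221-44522085, minus strand), one of the antiviral members, was higher in LV-SNORA28 by a much smaller amount. Its level was 19.8, 19.41 and 18.15 FPKM in LV-NC against 24.32, 23.05 and 24.5 FPKM in LV-SNORA28. No library of one group reached into the other, and the library pairings gave ratios of 1.16 to 1.35. The means of 19.1 ± 0.862 and 24.0 ± 0.79 FPKM (SD, n = 3) differ by a ratio of 1.25, or 0.31 (SE 0.06) on the log2(FPKM + 1) scale, with 85.6% of genes tested below it.

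SERINC2 (ENSG00000168528, chr1:31409565-31434680, plus strand) had the highest level of the family in LV-NC and was slightly lower in LV-SNORA28. The values were 22.92, 26.27 and 23.34 FPKM against 22.52, 21.16 and 19.52 FPKM. The 2 ranges stayed apart, though the lowest LV-NC library and the highest LV-SNORA28 library nearly met. The means of 24.2 ± 1.83 and 21.1 ± 1.5 FPKM (SD, n = 3) give a ratio of 0.871 and a log2(FPKM + 1) difference of -0.19 (SE 0.08).

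SERINC5 (ENSG00000164300, chr5:80111651-80256048, minus strand), the other antiviral member, had the lowest level of the 4 members and overlapping groups. Its libraries read 5.94, 5.07 and 5.29 FPKM in LV-NC and 5.06, 4.99 and 5.55 FPKM in LV-SNORA28. The highest value belonged to a control library and the lowest to a SNORA28 library, with the rest mixed. The means were 5.43 ± 0.452 and 5.2 ± 0.305 FPKM (SD, n = 3), a ratio of 0.957 and a log2(FPKM + 1) difference of -0.05 (SE 0.08).

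Within the contrast that chose the family, 3 of 4 members had groups that did not overlap, beside 35.1% of all genes tested. Because SERINC1 was picked on this contrast, nothing is read from this count. SERINC4 (ENSG00000184716, chr15:43794162-43800220, minus strand) was below the filter, at 0.02, 0.04 and 0.02 FPKM in LV-NC and 0.07, 0 and 0.03 FPKM in LV-SNORA28.

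**Figure D1:**
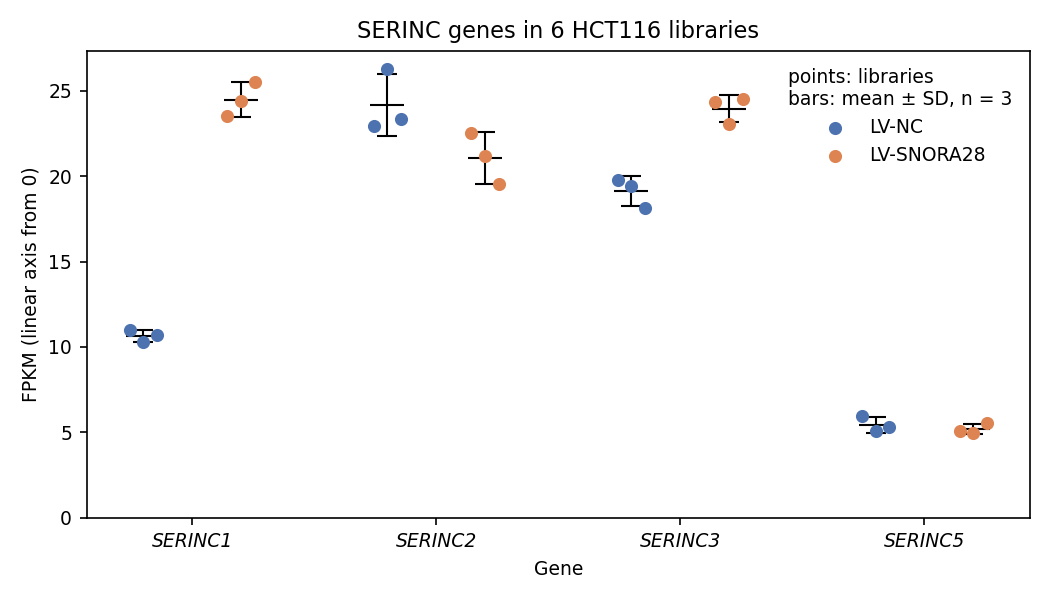
FPKM of the 4 SERINC members in each library of LV-NC and LV-SNORA28, with points for libraries and lines for group mean and SD (n = 3). The SERINC1 groups stand far apart (10.7 against 24.5 FPKM), SERINC3 and SERINC2 are apart by less than SERINC1 and in opposite directions, and SERINC5 overlaps.

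The order of the members by level changed with SERINC1. FPKM is scaled by transcript length, so levels of different genes can be set side by side, though only roughly. Any effect of GC content or of the isoform expressed on these levels was not removed. In LV-NC the order was SERINC2, SERINC3, SERINC1 and SERINC5, with no overlap between neighbours in that order. In LV-SNORA28, SERINC1 (23.52 to 25.52 FPKM) and SERINC3 (23.05 to 24.5 FPKM) overlapped and cannot be ordered beyond their spread, both stood above SERINC2 (19.52 to 22.52 FPKM), and SERINC5 stayed lowest.

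Summed over the 4 members, the family came to 59.64, 61.04 and 57.47 FPKM in the control libraries and to 75.42, 73.6 and 75.09 FPKM in LV-SNORA28. The sum was thus higher in every LV-SNORA28 library, by 15.3 FPKM or a ratio of 1.26. SERINC1 accounted for 90.3% of that net difference. The differences of the means were 13.8 FPKM for SERINC1, 4.84 for SERINC3, -3.11 for SERINC2 and -0.233 for SERINC5. Without SERINC1, the other members summed to 48.7 ± 1.99 FPKM in LV-NC and 50.2 ± 1.46 FPKM in LV-SNORA28 (SD, n = 3). That gap of 1.49 FPKM is within the SD of LV-NC, with SERINC3 and SERINC2 partly offsetting each other.

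As a share of the family sum, SERINC1 made up 18.0% ± 0.956 in LV-NC and 32.8% ± 1.44 in LV-SNORA28 (SD, n = 3). SERINC2 went the other way, from 40.7% ± 2.3 to 28.2% ± 1.99. SERINC3 held a nearly equal share in both groups, 32.2% ± 0.878 and 32.1% ± 0.674, although its own level was higher in LV-SNORA28. SERINC5 made up 9.16% ± 0.828 and 6.96% ± 0.375.

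**Figure D2:**
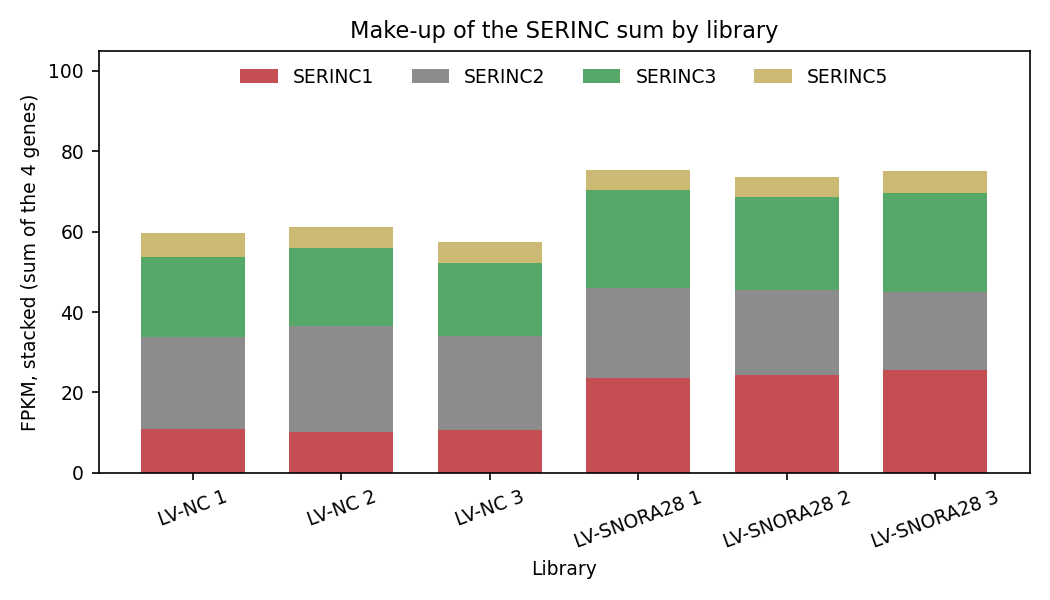
Stacked FPKM of SERINC1, SERINC2, SERINC3 and SERINC5 in each of the 6 libraries, from 0. The SERINC1 layer widens most in the 3 LV-SNORA28 libraries, and the SERINC3 layer widens by less. The stack reaches 73.6 to 75.42 FPKM in LV-SNORA28 against 57.47 to 61.04 in LV-NC.

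Ratios between members within a library do not depend on how that library was scaled. SERINC1 over SERINC3 was 0.555, 0.53 and 0.589 in LV-NC and 0.967, 1.06 and 1.04 in LV-SNORA28, so the pair went from unequal to about equal levels, a 1.83-fold higher ratio. SERINC1 over SERINC5 was 1.85, 2.03 and 2.02 in LV-NC and 4.65, 4.89 and 4.6 in LV-SNORA28, 2.4-fold higher. SERINC1 over SERINC2 was 0.443 ± 0.0456 and 1.17 ± 0.132 (SD, n = 3), 2.64-fold higher. The ratios not holding SERINC1 differed less: SERINC3 over SERINC2 was 0.793 ± 0.064 in LV-NC and 1.14 ± 0.0985 in LV-SNORA28, and SERINC2 over SERINC5 was 4.48 ± 0.664 and 4.07 ± 0.49.

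The size of the members' differences depended on the scale that joins the libraries. Over 16 alternatives the log2 difference of SERINC1 ran from 0.96 to 1.32, and from 0.96 to 1.11 once the median of all genes under the same setting was subtracted. SERINC3 ran from 0.18 to 0.47 and was above 0 in all 16, and SERINC2 ran from -0.29 to -0.05 and was below 0 in all 16. SERINC5 ran from -0.16 to 0.08 and was above 0 in 2 of the 16, the TPM rescaling and, at 0.0 after rounding, without LV-NC replicate 1. The TPM rescaling, which gives each library the same FPKM total, gave the highest value for each member. Rescaling each library to its sum of nuclear genes leaves out the mitochondrial genes, whose share was lower in LV-SNORA28. With it, the log2 difference was 1.1 for SERINC1, 0.29 for SERINC3, -0.22 for SERINC2 and -0.08 for SERINC5. As reported, these were 1.13, 0.31, -0.19 and -0.05. The part of the mitochondrial share in the members' values was not tested further.

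**Figure D3:**
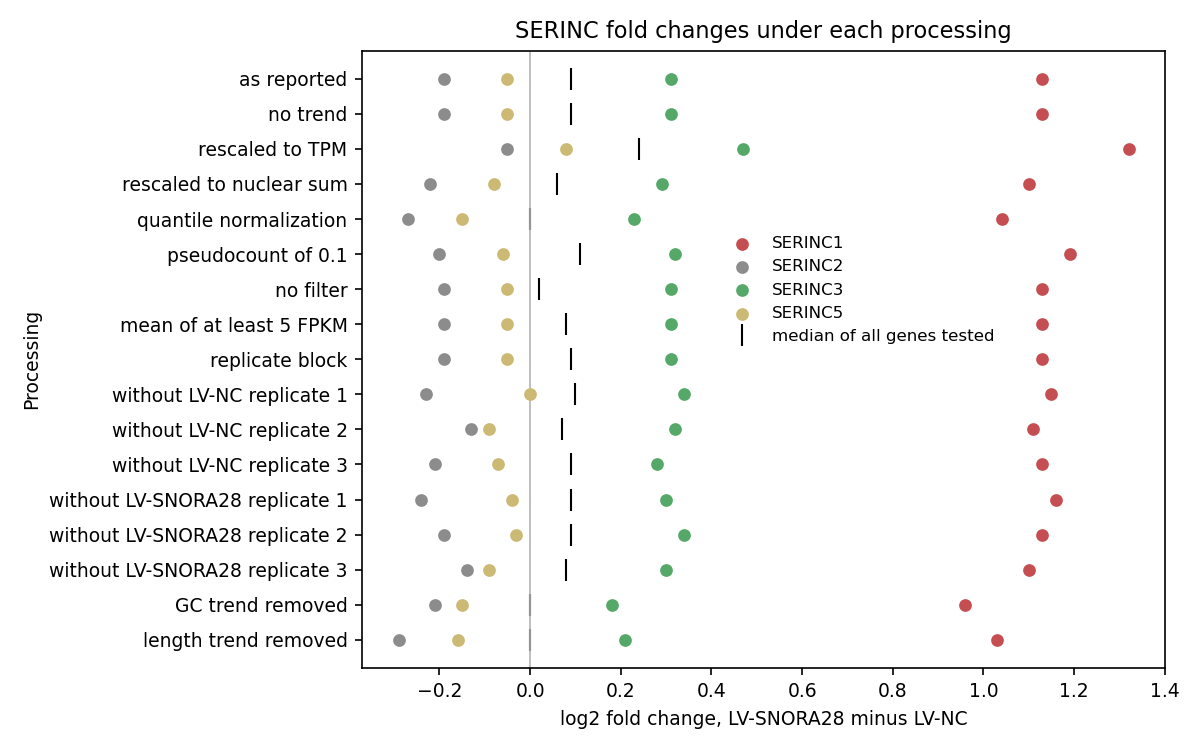
Log2 difference (LV-SNORA28 minus LV-NC) of each SERINC member as reported and under 16 alternative settings of scaling, filter, pseudocount, trend, block or left-out library, with ticks at the median of all genes tested. SERINC1 stays between 0.96 and 1.32, apart from the other three members under every setting shown.

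The members differ in base composition, and so did the difference between groups over all genes. In 20 bins of 597 to 608 genes ordered by the GC content of the GENCODE canonical transcript, the median log2 difference went from 0.18 in the lowest GC bin to 0.0 in the highest. SERINC1 is AT-rich, with a transcript GC of 38.3% (9.4% of genes tested lie lower), followed by SERINC3 at 42.6%, SERINC5 at 44.8% and SERINC2 at 63.0%. The bins that hold them had median differences of 0.17, 0.12, 0.1 and 0.02. With the GC trend removed, an alternative added after the data were seen, the log2 difference was 0.96 for SERINC1, 0.18 for SERINC3, -0.15 for SERINC5 and -0.21 for SERINC2. What lies behind the GC trend was not tested.

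**Figure D4:**
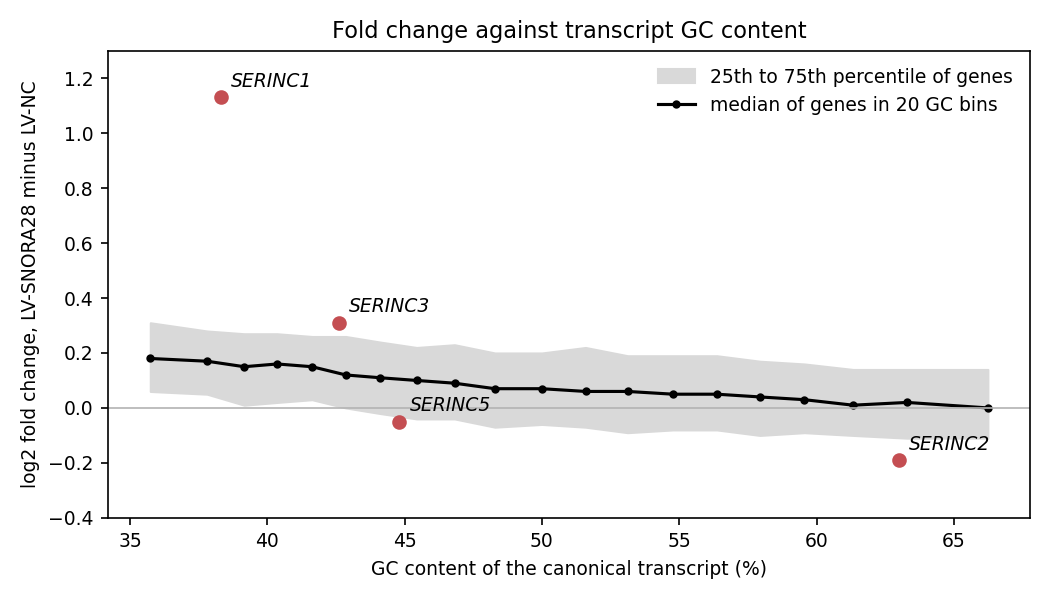
Median log2 difference (LV-SNORA28 minus LV-NC) of genes tested in 20 bins of transcript GC content (%), shaded by the interquartile range of each bin, with the 4 SERINC members at their own GC and difference. Bin medians go from 0.18 to 0.0 as GC rises, and SERINC1, at 38.3% GC, lies far above its bin while SERINC2, at 63.0% GC, lies below.

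Transcript structure sets the members apart mainly in the 3′ untranslated region (3′ UTR). Coding sequences are of like length, 1359 bases in SERINC1, 1365 in SERINC2, 1419 in SERINC3 and 1383 in SERINC5. The 3′ UTR spans 1693 bases in SERINC1 (ENST00000339697.5, 10 exons), 479 in SERINC2, 2855 in SERINC3 and 4936 in SERINC5. The element ATTTA, found in AU-rich elements, occurs 8 times in the 3′ UTR of SERINC1, 10 times in SERINC3 and 13 times in SERINC5 but not in SERINC2, and 72.2% of genes with a 3′ UTR examined hold at least 1. The Pumilio motif TGTANATA occurs in none of the 4 members and in 29.4% of those genes.

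The 3′ UTRs were also searched on the transcript strand for GTGTCAC, a stretch of the sequence that the methods list for the control lentivirus, shown because the members differ in it. It occurs 1 time in SERINC1, at position 1515 of the 3′ UTR, 1 time in SERINC5, at position 2002, and in neither SERINC2 nor SERINC3. Among 10539 genes, 1022 hold it (9.7%). The capitals below mark the match.
SERINC1 3′ UTR window: gttatttgtatGTGTCACtagtgtctaat
SERINC5 3′ UTR window: agtggggctgcGTGTCACacacagtagct
The 2 genes with the match had unlike differences, 1.13 for SERINC1 and -0.05 for SERINC5 on the log2(FPKM + 1) scale. Whether the match has a part in either level was not tested. No other stretch of the control sequence is reported here, and nothing is read from these matches.

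Between coding sequences, SERINC1 and SERINC3 were the closest of the 10 pairs in the family, SERINC4 included, with 67.8% of 1344 aligned bases identical. SERINC1 shared 60.3% with SERINC2, 60.9% with SERINC5 and 61.8% with SERINC4. The other pairs ranged from 59.7% (SERINC3 and SERINC4) to 64.6% (SERINC2 and SERINC3).

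The genes next to the members were described by up to 3 tested genes on each side, 24 in all, of which 1 was called higher and 2 lower, beside 8.91% of all genes tested called in either direction. Their median log2 difference was 0.11, against 0.09 over all genes. PKIB, an inhibitor of protein kinase A, starts 110 bases from SERINC1 on the opposite strand, so that both starts fall in the SERINC1 window printed above. PKIB stood at 1.44, 1.01 and 1.13 FPKM in LV-NC and 2.25, 1.61 and 1.76 FPKM in LV-SNORA28. Its groups did not overlap, but the difference of 0.39 (SE 0.12) did not pass the test (adjusted p = 0.0975, limma). On the other side of SERINC1, 10232 bases away, HSF2, a heat shock transcription factor, went from 5.76, 4.96 and 5.2 FPKM in LV-NC to 6.92, 6.35 and 6.96 FPKM in LV-SNORA28 (difference 0.3, SE 0.08, adjusted p = 0.0616, limma), which passed only with the TPM rescaling (0.47, adjusted p = 0.0417).

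The called neighbours lay farther off. TINAGL1, a secreted basement membrane protein 141805 bases from SERINC2, stood at 25.94, 23.57 and 20.96 FPKM in LV-NC and 14.26, 13.31 and 13.17 FPKM in LV-SNORA28. It fell, with every LV-SNORA28 library below every LV-NC library (difference -0.74, SE 0.09, adjusted p = 0.00845, limma), and the call held whichever library was left out (adjusted p 0.0169 to 0.0409). Its direction is that of SERINC2 and its size is larger. ASF1A, a histone chaperone 3534180 bases from SERINC1, rose (0.39, SE 0.08, adjusted p = 0.0308), and the call was lost whichever library was left out (adjusted p 0.0513 to 0.107). RPL37AP1, a processed pseudogene 29379 bases from SERINC3 whose reads may belong to its parent gene, fell (-0.66, SE 0.13, adjusted p = 0.0308), a call kept only without LV-SNORA28 replicate 2 among the left-out libraries.

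TINAGL1 is also the nearest tested gene on its side of SERINC2. The other nearest tested genes beside SERINC2, SERINC3 and SERINC5 were not called. Next to SERINC3, TTPAL (1618 bases away) gave -0.18 with adjusted p = 0.835, and 0.4 without LV-SNORA28 replicate 1, which read 0.58 FPKM. PKIG (9700 bases away) gave 0.03 with adjusted p = 0.883 and changed sign under 5 alternatives. Next to SERINC2, ZCCHC17 gave 0.09 (adjusted p = 0.551). Beside SERINC5, RBX1P2 gave 0.19 (adjusted p = 0.596, limma) and ENSG00000248569 gave 0.2 (adjusted p = 0.669, limma). Both are processed pseudogenes whose reads may belong to their parent genes, and RBX1P2 was near the filter, at 0.6 to 1.61 FPKM.

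Other genes of the pathways to which the family's name and activities point were taken as lists. Of 14 genes of serine synthesis, one-carbon use and transport, 13 were tested, 2 rose and none fell, beside 6.81% higher and 2.1% lower of all genes tested (median 0.09, the same as all genes). SHMT1, the cytosolic serine hydroxymethyltransferase, rose from 3.65, 4.17 and 4.58 FPKM in LV-NC to 6.34, 6.72 and 6.87 FPKM in LV-SNORA28 (0.58, SE 0.09, adjusted p = 0.0154, limma). SLC38A2, a neutral amino acid transporter that carries serine, rose from 98.79, 82.92 and 93.12 FPKM to 114.2, 114.11 and 129.89 FPKM (0.38, SE 0.09, adjusted p = 0.0484). The SHMT1 call was lost without LV-SNORA28 replicate 2 or 3 (adjusted p up to 0.0654), and the SLC38A2 call whichever library was left out and in 7 of 10 other alternatives. PHGDH, which opens the serine synthesis pathway and was picked for its role, gave -0.19 (adjusted p = 0.197).

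Of 21 genes of sphingolipid synthesis, 16 were tested, 4 rose and none fell, beside 6.81% higher and 2.1% lower of all genes tested, with a median of 0.15 and a range of -0.42 to 0.66. SGMS1, a sphingomyelin synthase, stood at 3.31, 2.91 and 3.39 FPKM in LV-NC and 4.93, 5.6 and 6.46 FPKM in LV-SNORA28 (0.66, SE 0.1, adjusted p = 0.0174, limma). CERS6, a ceramide synthase, stood at 9.83, 8.14 and 9.02 FPKM and 12.63, 12.45 and 14.82 FPKM (0.52, SE 0.1, adjusted p = 0.0273). The other two called genes, named after their values were seen, were SGMS2, the second sphingomyelin synthase (0.47, SE 0.08, adjusted p = 0.0203), and SPTSSA, a small subunit of serine palmitoyltransferase (0.28, SE 0.06, adjusted p = 0.0388).

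These calls sat close to the threshold. SGMS1 was lost without LV-NC replicate 2 or LV-SNORA28 replicate 2 or 3 (adjusted p up to 0.067), CERS6 was kept, of the left-out libraries, only without LV-NC replicate 1, and SGMS2 and SPTSSA were lost whichever library was left out. SPTLC1 and SPTLC2, the subunits of serine palmitoyltransferase that join serine to an acyl chain, gave 0.34 (adjusted p = 0.169) and 0.36 (adjusted p = 0.108). Both were picked for their role. SPTSSB, the other small subunit, was below the filter and is named after its values were seen. It stood at 0.38, 0.54 and 0.27 FPKM in LV-NC against 1.35, 1.53 and 1.44 FPKM in LV-SNORA28, with no overlap and a ratio of 3.63. With no minimum it passed the test (0.81, SE 0.11, adjusted p = 0.0385, limma), and the 4 genes called above did not.

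All 3 genes of phosphatidylserine synthesis and decarboxylation were tested and none was called by limma, beside 8.91% of all genes tested called in either direction. An unadjusted p below 0.05 (limma) was reached by 0 genes, beside 3385 of all 12076 genes tested. With 3 genes, these counts cannot be told apart from those shares. PTDSS1 and PTDSS2, the phosphatidylserine synthases, gave 0.06 and 0.13, and PISD, the decarboxylase, 0.0. Their levels were similar in the groups: PTDSS1, for example, stood at 9.07 ± 0.556 FPKM in LV-NC and 9.5 ± 0.204 FPKM in LV-SNORA28 (SD, n = 3).

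Among 16 further scramblases and flippases, 12 were tested, 3 rose and none fell, beside 6.81% higher and 2.1% lower of all genes tested (median 0.07). VMP1, a scramblase of the endoplasmic reticulum, stood at 19.88, 16.05 and 17.62 FPKM in LV-NC and 25.45, 30.51 and 28.87 FPKM in LV-SNORA28 (0.64, SE 0.1, adjusted p = 0.0178, limma). TMEM41B, a related scramblase of the same membrane, stood at 3.02, 2.79 and 2.45 FPKM and 3.56, 4.3 and 4.41 FPKM (0.44, SE 0.1, adjusted p = 0.0466). ATP11B, a flippase named after its value was seen, gave 0.41 (SE 0.08, adjusted p = 0.0326). VMP1 was lost without LV-NC replicate 3 or LV-SNORA28 replicate 2 or 3 (adjusted p up to 0.0705), and TMEM41B and ATP11B whichever library was left out. ANO6, the calcium-activated scramblase of the cell surface, gave 0.07 (adjusted p = 0.606).

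Of 16 other retrovirus restriction factors, 11 were tested and 0 were called by limma, beside 8.91% of all genes tested called in either direction. Their log2 differences had a median of 0.02 and a range of -0.36 to 0.38. An unadjusted p below 0.05 (limma) was reached by 3 of the 11, beside 3385 of all 12076 genes tested. Those 3 were SAMHD1, a dNTP hydrolase (-0.36, adjusted p = 0.0533), APOBEC3B, a cytidine deaminase (0.35, adjusted p = 0.0645), and BST2, the tetherin that holds virions at the cell surface (0.38, adjusted p = 0.127), named after their values were seen. SERINC3 and SERINC5, the restriction factors of the family, gave 0.31 and -0.05 on the same log2(FPKM + 1) scale.

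**Figure D5:**
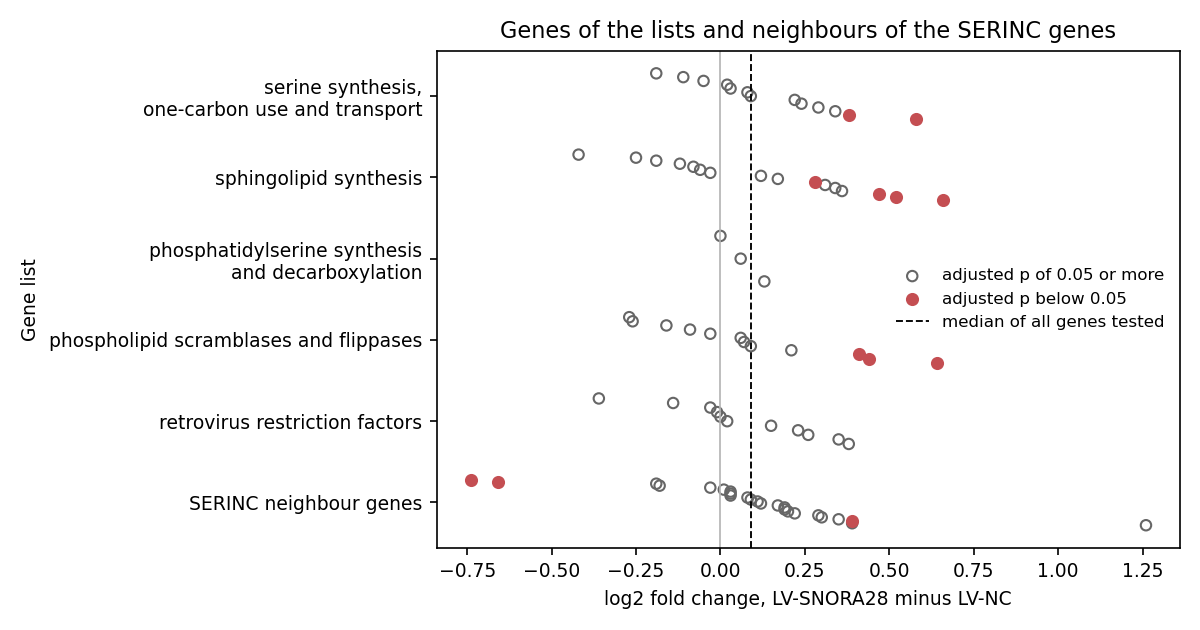
Log2 difference (LV-SNORA28 minus LV-NC) of each tested gene of the 5 pathway lists and of the SERINC neighbours, one point per gene, filled where the adjusted p (limma) was below 0.05, with the median of all genes, 0.09, as a dashed line. The pathway genes lie at or below 0.66, and among neighbours TINAGL1 lies lowest at -0.74 and YWHAB highest at 1.26 with widely spread replicates (adjusted p = 0.151).

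Genes with a pattern most like SERINC1 were sought by Pearson's r of log2(FPKM + 1) over the 6 libraries, with no test. The 5 highest were PAPOLA (r = 0.9997), PEX19 (0.9995), PAQR5 (0.9995), GOLM1 (0.9991) and CREBL2 (0.9987). With 3 libraries in each of a pair of groups that stand apart, r mostly records the gap between groups, and 606 genes reached 0.95. PAPOLA, a poly(A) polymerase, went from 13.3 to 19.7 FPKM, a log2 difference of 0.53. PEX19, a peroxisome import factor, went from 4.0 to 7.94 FPKM (0.84), and GOLM1, a Golgi membrane protein, from 17.1 to 30.6 FPKM (0.8). The log2 difference was 0.7 for PAQR5 and 0.97 for CREBL2.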

How the data were processed

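The authors sequenced polyadenylated RNA of HCT116 cells in 3 LV-NC and 3 LV-SNORA28 libraries and deposited 1 table of FPKM per library. Per the submitters' processing notes, cutadapt 1.9, HISAT2 2.2.1 and StringTie 2.1.6 were used on hg38. The annotation release is not given in the sources used here. FPKM carries no read counts, so depth is unknown and no counting interval is given.

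Ensembl identifiers were mapped to GENCODE release 44, which gave a symbol to 60401 of 60612 genes. Values were tested as log2(FPKM + 1) with limma 3.58.1 in R 4.3.3 (trend, moderated variances, both groups, no covariate, Benjamini-Hochberg adjustment) over the 12076 genes that averaged 1 FPKM or more. Fold changes on this scale understate those of low genes. The fit was tested on simulated data.

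The members and lists were chosen with earlier results of these data known. Genes named are the members, SERINC4, SNORA28, up to 2 genes per direction and list with the largest called change, called neighbours, the nearest tested gene on each side of a member, and the 5 genes most correlated with SERINC1. Others are named as picked for their role or after their values were seen. Transcript features come from GENCODE canonical transcripts and promoter windows from RefSeq. Of 12076 genes, 12053 had a transcript GC content and length.

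Alternatives were no trend, TPM, rescaling to nuclear genes, quantile normalization, pseudocount 0.1, minimum 5 FPKM, no minimum, a replicate block and leaving out each library. Removal of the GC and length trends (loess, span 0.3) was added after the data were seen.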

Additional observations from a re-analysis of the deposited data

How the results depend on the processing

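The 1076 genes called overall became 2030 with TPM, 397 with no minimum, 510 with the replicate block, 710 with the GC trend removed and 279 to 628 without one library. The log2 difference of SERINC1 was 1.32 with TPM, 1.04 with quantile normalization, 1.19 with a pseudocount of 0.1, 0.96 with the GC trend removed and 1.03 with the length trend removed, and 1.1 to 1.16 without one library. SERINC3 was 0.47 with TPM, 0.23 with quantile normalization, 0.18 and 0.21 with the GC and length trends removed, and 0.28 to 0.34 without one library. SERINC2 was -0.05 with TPM and -0.24 to -0.13 without one library. SERINC5 was 0.08 with TPM, -0.15 with quantile normalization, -0.15 and -0.16 with the GC and length trends removed, and -0.09 to 0.0 without one library. Without one library, LV-NC means ranged from 10.5 to 10.8 FPKM (SERINC1), 23.1 to 24.8 (SERINC2), 18.8 to 19.6 (SERINC3) and 5.18 to 5.62 (SERINC5).

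Called serine genes, 2 as reported, were 5 with TPM and 1 with no limma trend, nuclear rescaling, no minimum, the replicate block or either trend removed, and 0 to 1 without one library. They stayed at 2 with quantile normalization, but SLC38A2 was then not among them (adjusted p = 0.136, limma). Called sphingolipid genes, 4 as reported, were 1 with no minimum (SPTSSB, none of the 4), 1 with the replicate block (SGMS1) and 0 to 2 without one library. UGCG, named after its values were seen (-0.25, adjusted p = 0.0533, limma), was called lower with nuclear rescaling, quantile normalization, a minimum of 5 FPKM and either trend removed. Called scramblases and flippases, 3 as reported, were 1 with nuclear rescaling or the GC trend removed, 0 with no minimum or the replicate block, and 0 to 1 without one library. They stayed at 3 with quantile normalization or the length trend removed. TMEM41B was then not among them (adjusted p = 0.0922 and 0.0816, limma), so another gene of the list was. XKR8 of this list, named after its values were seen, was lower but not called as reported (-0.27, adjusted p = 0.0643, limma). Called restriction factors, 0 as reported, were 1 (SAMHD1) with no limma trend, quantile normalization or either trend removed, and 1 (APOBEC3B) with TPM. Called neighbours, 3 as reported, were 1 with no minimum or the replicate block and 1 to 2 without one library. The cause of these changes was not tested. The sign changed for TTPAL (0.4 without LV-SNORA28 replicate 1, down to -0.51 without replicate 3), ENSG00000248569 (-0.13 without LV-SNORA28 replicate 1) and PKIG (-0.06 with quantile normalization or without LV-NC replicate 3, -0.01 without LV-SNORA28 replicate 2, -0.03 and -0.04 with the GC and length trends removed). Libraries with the same number share only that number: taken across genes, the correlation of their departures from each group's mean was -0.0441, 0.0914 and 0.00983, so the block is no design of the study. Depth is unknown and limits mainly low genes such as SERINC4.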
